A study of Mus musculus with 15 samples.

Results

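The 8 genes described here encode the haematopoietic cytokine receptors Csf2ra, Csf2rb, Csf1r, Csf3r, Epor, Kit, Flt3 and Il3ra, out of 31492 genes in the annotation used. They were chosen by name, and all CpGs inside each gene or within 5 kb upstream of it were taken. A depth of 10 reads or more in every one of the 15 libraries was reached by 241527 CpGs, of which 86 lay in these genes. These fell into 21 windows of 1 kb, of which 10 held at least 3 CpGs and were tested, out of 29251 such windows in the genome. A promoter, here the CpGs no more than 1 kb from any start site of the gene, could be tested for 3 of the 8 genes, out of 12039 promoters. Coordinates are on mm9.

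The assay was reduced representation bisulfite sequencing (RRBS), which reads CpG-rich fragments after bisulfite has converted unmethylated cytosines. A methylation level is the percentage of reads that stayed unconverted. All mice were C57BL/6, and cells were sorted fresh from marrow. Megakaryocyte-erythroid progenitors (MEP) were sorted as Lin-cKit+ Sca1- CD34- Cd16/32-, and granulocyte-macrophage progenitors (GMP) as Lin-cKit+ Sca1- CD34+ Cd16/32+. The double mutant (Mx1-cre+;Dnmt3a-/-;Idh2 R140Q) gave 3 libraries of malignant progenitors carrying the MEP surface markers, and no GMP library of that genotype was analysed. The Dnmt3a knockout (Mx1-cre+;Dnmt3a-/-), the Idh2 mutant (Mx1-cre-;Dnmt3af/f;Idh2 R140Q) and the genotype labelled wild type (Mx1-cre+;Dnmt3af/f) each gave 2 MEP and 2 GMP libraries. Floxed Dnmt3a was thus also carried by the wild type and Idh2 mutant animals, and the Idh2 mutant alone lacked Mx1-cre, a transgene active in blood cells and in other tissues after induction. The labels call the libraries biological replicates without saying that they came from separate animals, so p-values measure the spread between these samples.

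Read counts summed over all CpGs came to 19306705 to 35204906 per library, where a read is counted at each CpG it covers. The median was 30 to 51 reads at the shared CpGs. The mean level over shared CpGs was 41.8% to 43.0% in the double mutant and 37.4% to 41.1% in the other groups. The 4 wild type libraries stood apart in sex chromosome reads. Reads on the X chromosome came to 1.17% to 1.47% of autosomal reads in the 11 mutant libraries and 2.21% to 2.25% in wild type. Reads on the Y chromosome came to 198.8 to 386.3 RPM (relative to autosomal reads) in the mutants and 53.95 to 57.52 RPM in wild type. Genotype and this difference cannot be told apart in any comparison with wild type. The double mutant also had more Y chromosome reads, at 357.1 to 386.3 RPM, than the single mutants, at 198.8 to 302.7 RPM, without overlap, and the part of this in the results was not tested. In 1 window of Dnmt3a, depth came to 0 to 0.143 RPM (relative to all reads) in the double mutant, 0.422 to 1.85 in the knockout, 0 to 1.19 in the Idh2 mutant and 6.54 to 8.21 in wild type. Idh2 mutant libraries were low there without Mx1-cre, and whether the window lies in the deleted part is not given in the sources used here, so it did not check the genotypes.

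Cytokine receptors let blood progenitors sense the factors that keep them alive and set their fate. Csf2ra and Il3ra are the ligand-binding chains for GM-CSF and interleukin 3 and signal through the common chain encoded by Csf2rb. Csf3r and Epor bind G-CSF and erythropoietin, and drive neutrophil and red cell output through Jak2 and Stat5 or Stat3. Kit, Flt3 and Csf1r are related receptor tyrosine kinases for stem cell factor, Flt3 ligand and CSF-1. Dnmt3a places new methylation, and the product of Idh2 R140Q, 2-hydroxyglutarate, inhibits the Tet enzymes that oxidise methylated cytosine. Methylation at a promoter often goes with low transcription, while methylation inside a transcribed gene is common. RNA was not analysed here.

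The stretches below hold measured CpGs of regions with a called difference. For the Csf2ra promoter, the stretch holds only 4 of the 8 CpGs that were tested together. Each is read from the NCBIM37 reference, 5′ to 3′ on the gene's strand, with the CpGs measured in all 15 libraries in capitals. Csf2ra exons 7 to 8 are shown because the double mutant stood apart from all other groups there (chr19:61301699-61301982, minus strand, 5 of 24 CpGs measured):
Csf2ra exons 7 to 8: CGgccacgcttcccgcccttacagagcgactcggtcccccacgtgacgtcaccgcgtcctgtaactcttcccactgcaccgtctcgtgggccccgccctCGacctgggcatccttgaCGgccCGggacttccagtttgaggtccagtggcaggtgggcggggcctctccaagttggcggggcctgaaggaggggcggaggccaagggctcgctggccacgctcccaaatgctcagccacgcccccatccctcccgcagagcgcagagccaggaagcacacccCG
The Csf2ra promoter is shown from 250 bases before to 50 bases after the start (chr19:61304272-61304571, minus strand, 4 of 23 CpGs measured), because it was the only receptor promoter with a called difference:
Csf2ra promoter: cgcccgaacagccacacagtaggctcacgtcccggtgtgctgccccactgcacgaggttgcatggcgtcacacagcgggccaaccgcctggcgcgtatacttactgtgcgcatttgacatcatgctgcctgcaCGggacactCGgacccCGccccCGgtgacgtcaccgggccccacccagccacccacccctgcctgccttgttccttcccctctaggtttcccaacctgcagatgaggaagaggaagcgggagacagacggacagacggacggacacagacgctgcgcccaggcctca
Flt3 intron 1 differed between MEP and GMP and with Idh2 R140Q (chr5:148200376-148200489, minus strand, 3 of 3 CpGs measured), Epor exon 4 differed with Idh2 R140Q (chr9:21765911-21765994, minus strand, 4 of 6), and a single CpG of Kit intron 2 differed between the double mutant and wild type MEP (chr5:76004183-76004264, plus strand, 1 of 6):
Flt3 intron 1: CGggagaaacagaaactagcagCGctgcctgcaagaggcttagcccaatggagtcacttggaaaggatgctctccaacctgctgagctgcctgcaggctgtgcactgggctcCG
Epor exon 4: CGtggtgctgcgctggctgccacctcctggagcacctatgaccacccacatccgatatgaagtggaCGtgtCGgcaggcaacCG
Kit intron 2: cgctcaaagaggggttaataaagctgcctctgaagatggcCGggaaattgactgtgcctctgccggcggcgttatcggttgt

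The receptor genes were sampled thinly and unevenly. The 8 genes with their upstream 5 kb hold 4421 CpGs in the reference, of which 1.95% were measured in all libraries. Csf2ra, a small and CpG-dense gene with 39.5 CpGs per kb, supplied 48 of the 86. Flt3 supplied 10, Epor 9, Kit 8, Il3ra 7, and Csf1r and Csf3r 2 each. Csf2rb, with 8.89 CpGs per kb, had none at this depth. Of the 86 CpGs, 38 lay in coding exons, 37 in introns and 11 upstream. The 10 tested windows belonged to 5 genes, with 4 in Csf2ra, 2 each in Flt3 and Epor, and 1 each in Kit and Il3ra. Of these, 6 were below 10% in all 7 groups. Of the 11 windows with 1 or 2 CpGs, 7 were above 80% in all groups and 1 was below 10%.

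**Figure D1:**
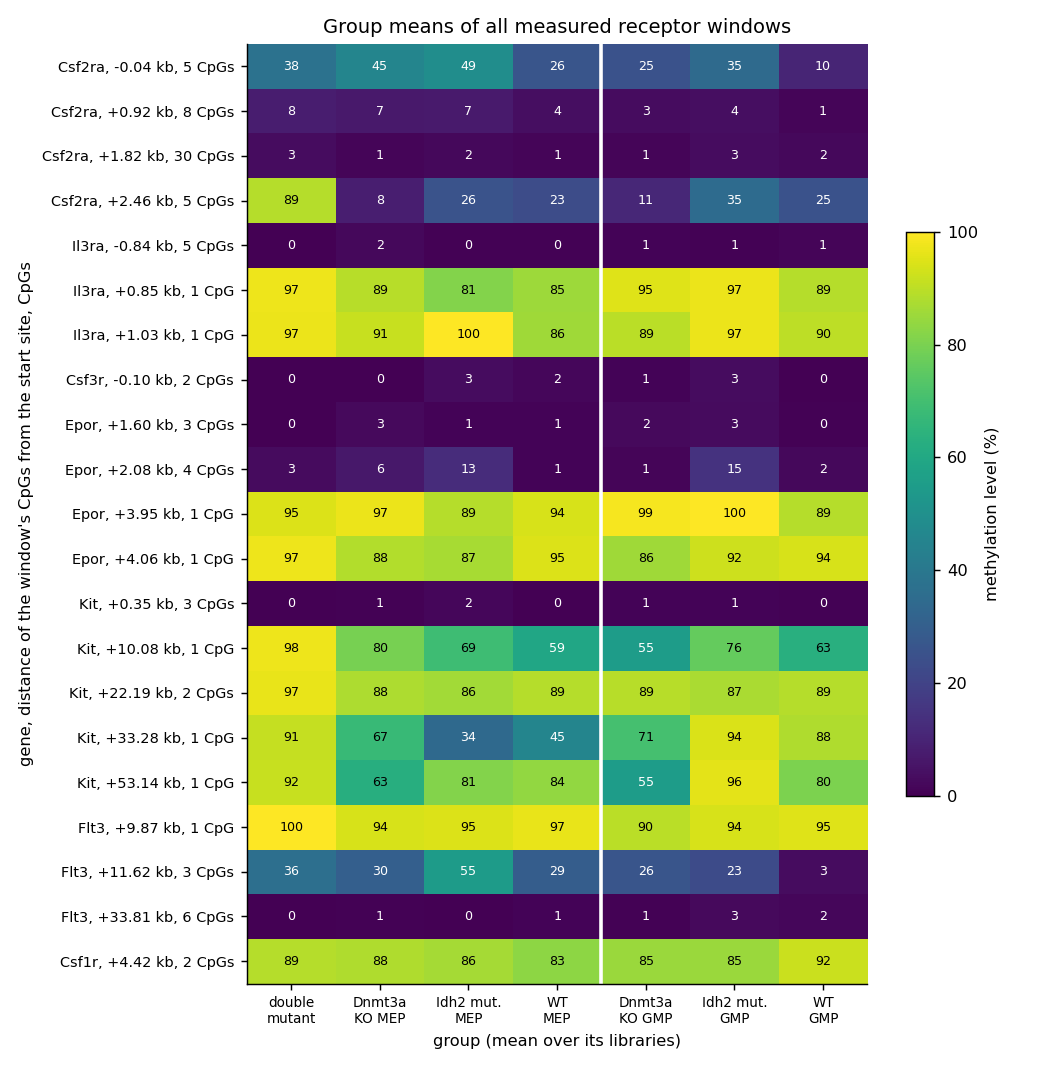
Mean methylation level (%, colour and number) of each measured receptor window, in rows ordered by gene and distance from the start site, in the 7 groups (columns, 3 double mutant libraries and 2 of each other group). Most windows are near 0 or near 100 in every group, and the exceptions lie in Csf2ra, Kit introns, Flt3 intron 1 and Epor exon 4.

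Csf2ra gave the largest difference among the receptors. In the window at 2.46 kb from its start, spanning exon 7, exon 8 and intron 6 of 12 exons, the levels were 88.2%, 92.6% and 85.5% in the double mutant. They were 1.92% and 14.8% in knockout MEP, 33.5% and 17.8% in Idh2 mutant MEP, and 30.03% and 16.2% in wild type MEP. GMP levels were 9% and 13.3% in the knockout, 40% and 29.9% in the Idh2 mutant, and 32.6% and 17.6% in wild type. The 3 double mutant libraries were thus above all 12 others, with a count of at least 167 summed over the 5 CpGs behind each value. A read covering several of these CpGs is counted at each, and a single CpG had as few as 11 reads. A level is a share of reads from many cells, so partial methylation in each cell and a mixture of cells cannot be told apart.

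In the quasi-binomial model fitted to all windows, double mutant Csf2ra was 65.6 points above wild type MEP (88.8% ± 3.6 against 23.1% ± 9.8, SD, n = 3 and 2, adjusted p = 0.000141). It was 80.4 points above knockout MEP (8.36% ± 9.1, n = 2, adjusted p = 3.18e-05) and 63.1 points above Idh2 mutant MEP (25.7% ± 11, n = 2, adjusted p = 0.000404). These 3 comparisons share the double mutant libraries. Calls needed a difference of 10 points or more together with an adjusted p below 0.05, and by that rule 14.3% of all windows were called against wild type MEP, 13.2% against knockout MEP and 14.1% against Idh2 mutant MEP. Among the receptors, 1 of 10 windows was called against wild type, 1 of 10 against the knockout and 2 of 10 against the Idh2 mutant. These counts lie near the background shares. The median difference over the 10 windows was 1.95 points against wild type MEP, beside 1.34 over all windows.

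In the single mutants no such gain passed the test in Csf2ra. Levels in the knockout averaged 9.75% ± 5.8 over both cell types, against 24.1% ± 8.4 in wild type (SD, n = 4 each), a difference of -14.4 points that did not pass the test (adjusted p = 0.155). The Idh2 mutant averaged 30.3% ± 9.3 (SD, n = 4), 6.21 points above wild type (adjusted p = 0.671). The double mutant exceeded the sum of the single mutant effects by 77.9 points, tested on the logit scale (adjusted p = 0.00392). Across the genome 5.98% of windows were called for such a departure, and 2 of the 10 receptor windows were, Csf2ra above the sum and Epor below it.

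The gain was uneven from CpG to CpG. In the double mutant the CpG in exon 8 stood at 93.8%, 2 of the 3 in exon 7 at 96.0% and 97.1%, and the one in intron 6 at 83.7%. At these 4 CpGs each double mutant library was above each of the other MEP libraries. The remaining exon 7 CpG, 2439 bases from the start, had 38.1%, 91.3% and 18.2% in the double mutant, so that its mean of 49.2% was 28.1% without replicate 2. There the double mutant overlapped the other MEP libraries, which reached 22.6%. Group means over the same 5 CpGs ranged from 2.88% to 15.1% in knockout MEP, from 10.4% to 48.3% in Idh2 mutant MEP, and from 11.3% to 32.9% in wild type MEP. Single libraries of these groups reached 23.75%, 62.8% and 35.8%, at the exon 8 CpG. Levels were lower close by. In exon 6, 272 bases further towards the start, the first CpG measured had 8.70%, 20% and 6.67% in the double mutant and 4.76% and 11.8% in wild type MEP. The 6 exon 6 CpGs ranged from 0% to 46.7% over the single double mutant libraries. Their means were 4.44% to 25.4% in the double mutant and 0% to 8.26% in wild type MEP, each higher in the double mutant. At 2062 bases from the start the double mutant had 9.52%, 20% and 46.7%, against 0% in wild type and Idh2 mutant MEP and at most 3.85% in knockout MEP. Wild type GMP replicate 1 had 14.3% there, above double mutant replicate 1, and depth was as low as 14 reads. At the other exon 6 CpGs the double mutant overlapped other MEP libraries. Single CpGs were not tested. Exon 3 was unmethylated, with all 10 of its CpGs at or below 0.901% in the double mutant. The window holding exons 3 to 6, with 30 CpGs, averaged 3.20% ± 1.5 in the double mutant and 1.24% ± 0.41 in wild type MEP (SD, n = 3 and 2), and was not called.

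**Figure D2:**
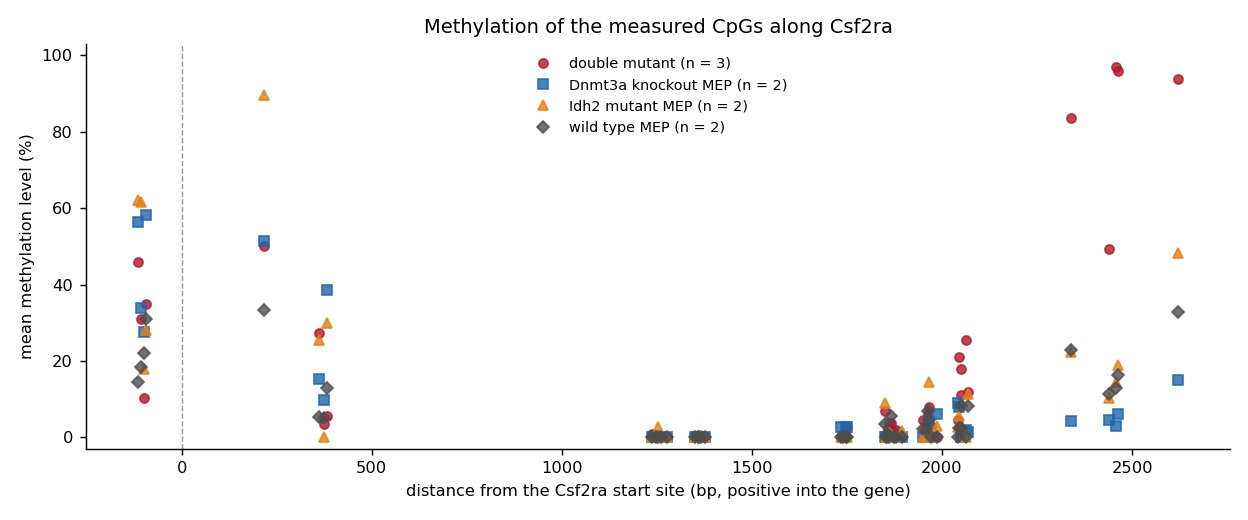
Mean methylation level (%) of each of the 48 measured CpGs of Csf2ra against its distance from the start site (bp) in double mutant, knockout MEP, Idh2 mutant MEP and wild type MEP. At the 5 CpGs from 2340 to 2622 bp the double mutant means are 49.2% to 97.1% and those of the other groups 2.88% to 48.3%, with overlapping libraries at the CpG at 2439 bp (18.2% to 91.3% in the double mutant), while CpGs at 1238 to 1378 bp are near 0 in all 4 groups.

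More CpGs of the same 1 kb Csf2ra window reached 10 reads when only the double mutant and wild type MEP libraries were required, and these also lay in exon 9 and in introns 8 and 10. With 16 CpGs the level was 85.6%, 90.6% and 89.0% in the double mutant, against 35.9% and 28.4% in wild type MEP. The difference was 56.3 points (adjusted p = 0.0186 in a fit of these groups alone). That fit tested 24 receptor windows and called 2, in Csf2ra and Kit, beside 5.99% of all windows.

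The Csf2ra promoter followed another order. Its 8 CpGs had 25.9%, 24.7% and 22.4% in the double mutant, 31.3% and 41.1% in knockout MEP, 50.5% and 27.4% in Idh2 mutant MEP, and 21.6% and 8.97% in wild type MEP. In GMP they had 13.8% and 19.7% in the knockout, 33.2% and 23.2% in the Idh2 mutant, and 7.71% and 4.40% in wild type. Summed over these CpGs, each of the 4 Idh2 mutant libraries exceeded each of the 4 wild type libraries. The sum depends on how reads were shared among unlike CpGs. At 216 bases into the gene, means were 62.6% in Idh2 mutant GMP and 89.6% in Idh2 mutant MEP, against 23.5% and 33.3% in wild type. In MEP the Idh2 mutant was below wild type at positions -94, -100 and 374, and above it at the others. In the 1 kb window holding 5 of the 8, the Idh2 mutant was 23.6 points higher and not called (adjusted p = 0.0998). The promoter mean was 33.6% ± 12 in the Idh2 mutant and 10.7% ± 7.5 in wild type (SD, n = 4 each), a difference of 22.9 points (adjusted p = 0.0184), beside 1.81% of promoters called. The call ended without Idh2 mutant GMP replicate 1 (adjusted p = 0.175), without wild type GMP replicate 1 (0.071) or replicate 2 (0.0748), and with limma (0.0586).

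The double mutant promoter of Csf2ra differed by 9.06 points from wild type MEP, by -11.9 points from knockout MEP and by -14.6 points from Idh2 mutant MEP, with adjusted p of 0.354, 0.259 and 0.313. Among the 3 receptor promoters 0 were called in each of these comparisons, by the quasi-binomial model and by limma, and 0 had an unadjusted p under 0.05. The background was 12.1% of promoters called against wild type MEP, 14.6% against knockout MEP and 13% against Idh2 mutant MEP. For the knockout against wild type over both cell types, 0 of 3 were called by either tool and 1 had an unadjusted p under 0.05, with 0.914% of promoters called. The Csf2ra promoter was 15.8 points higher in the knockout there (adjusted p = 0.104). Between MEP and GMP, 0 of 3 promoters were called by either tool over the 3 genotypes or within wild type, each with 1 at an unadjusted p under 0.05. Called shares were 0.0332% over the 3 genotypes and 0.00831% within wild type.

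**Figure D3:**
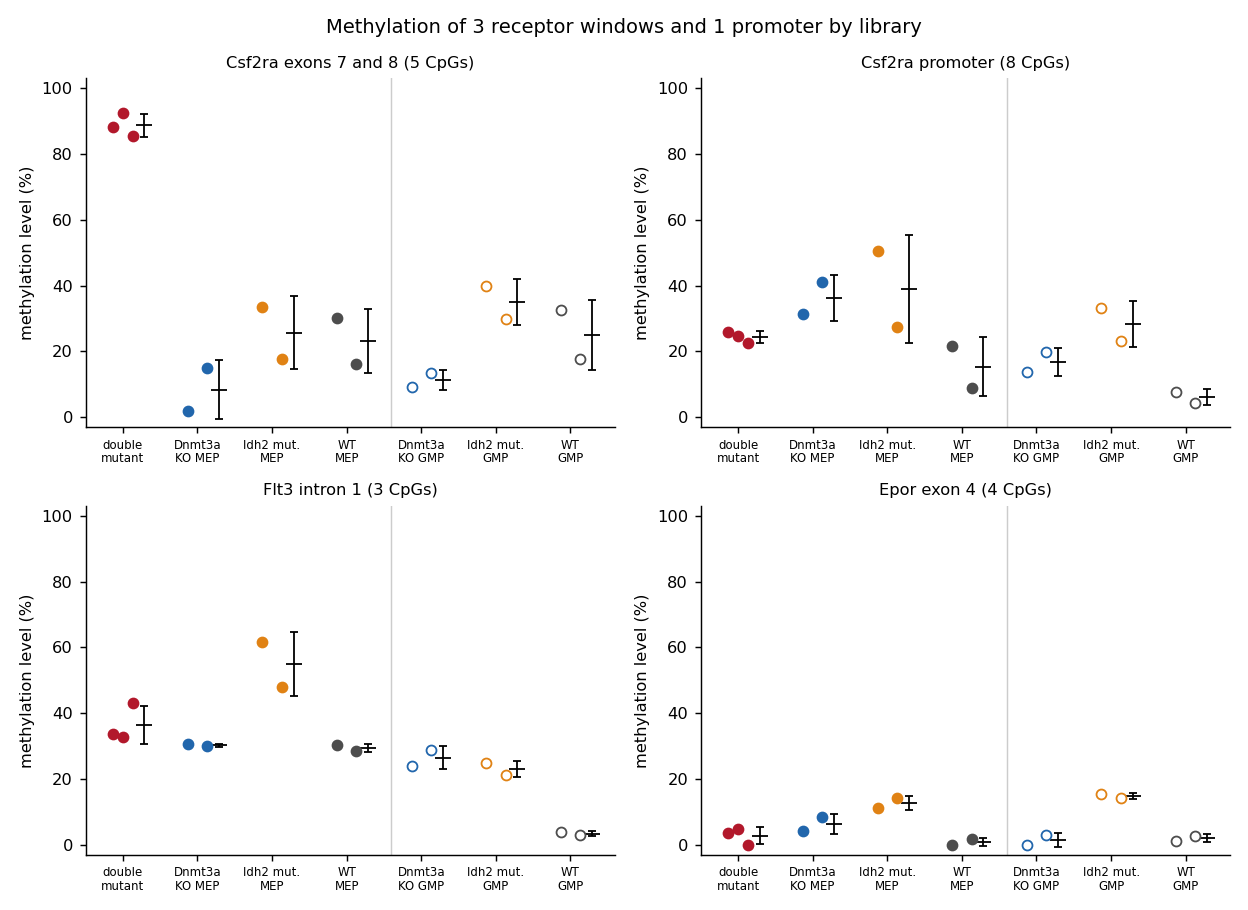
Methylation level (%) of Csf2ra exons 7 and 8, the Csf2ra promoter, Flt3 intron 1 and Epor exon 4 in every library (points, filled for the double mutant and MEP, open for GMP), with the mean and SD of each group beside them. The double mutant stands above all other libraries in Csf2ra exons 7 and 8, and the Idh2 mutant stands highest in Epor exon 4 in both cell types.

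Il3ra, the partner gene for interleukin 3, had an unmethylated upstream stretch beside methylated CpGs in intron 2. Its 5 CpGs at positions -917 to -740 relative to the start ranged from 0% to 4.44% over the 15 libraries. A CpG at 846 bases into the gene, in intron 2, ranged from 62.5% to 100%, with only 10 to 45 reads behind each value, and another at 1031 bases ranged from 82.9% to 100%. The promoter value, which sums these 7 CpGs, ran from 11.5% to 32.6% and so depends on how reads were shared between the unmethylated and methylated parts. It was 23.5%, 11.5% and 14.6% in the double mutant and 13.04% and 15.9% in wild type MEP, which overlap. In the fit of double mutant and wild type MEP alone, a window over introns 1 and 2 and exon 2 held 7 CpGs and was intermediate. It had 53.3%, 59.0% and 50.7% in the double mutant and 38.3% and 60.1% in wild type MEP (adjusted p = 0.695).

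Csf2rb, the shared signalling chain, had 14 CpGs seen in any library. The 3 CpGs of intron 13 that reached 10 reads in the double mutant and wild type MEP had 95.5%, 95.8% and 97.5% in the double mutant, against 82.7% and 88.5% in wild type MEP. The groups did not overlap, and the difference of 10.7 points did not pass the test (adjusted p = 0.0705).

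Csf3r, the G-CSF receptor gene, was measured at 2 CpGs, at positions -106 and -88 relative to its start. They were 0% in all 3 double mutant libraries and in both knockout MEP libraries, and at most 6.67% in any library. A 0 rests on a count of at least 30 summed over the 2 CpGs, with at least 15 reads at each. Reads covering both are counted at each, so a 0 allows a level of up to about 3 reads in 15. No gain was detectable there at this depth.

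Epor, the erythropoietin receptor gene, was low in its middle and highly methylated towards its end. The window of 4 CpGs in exon 4 of 8, at 2.08 kb from the start, had 11.1% and 14.3% in Idh2 mutant MEP and 15.4% and 14.1% in Idh2 mutant GMP. It had 0% and 1.68% in wild type MEP, and 1.28% and 2.80% in wild type GMP. The double mutant had 3.70%, 4.65% and 0%, knockout MEP 4.07% and 8.43%, and knockout GMP 0% and 2.96%. Over the 4 CpGs together, all 4 Idh2 mutant libraries were above all 11 others. Single CpGs overlapped. At 2093 bases from the start knockout MEP replicate 2 had 15.8%, against 9.52% and 4.44% in Idh2 mutant MEP. At 2027 bases knockout MEP replicate 1 had 10.4%, against at most 6.56% in the Idh2 mutant. The count behind a window value was at least 54, and a single CpG had as few as 12 reads.

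The Epor exon 4 difference between the Idh2 mutant and wild type was 12.3 points (13.7% ± 1.8 against 1.44% ± 1.2, SD, n = 4 each, adjusted p = 0.00622). In this comparison 3.07% of all windows and 2 of 10 receptor windows were called, the other in Flt3. The call held without any 1 of the 15 libraries. The effect was 11.9 points within MEP (adjusted p = 0.0511) and 12.7 points within GMP (adjusted p = 0.111), and the difference between these effects, -0.87 points, did not pass the test (adjusted p = 0.997). The CpG values were uneven. In Idh2 mutant GMP the 4 CpGs had 11.9%, 23.8%, 27.1% and 1.49%, and in Idh2 mutant MEP 16.2%, 26.1%, 6.98% and 3.28%, in order of rising genome position. The stretch printed above is on the minus strand and shows these CpGs in the reverse order.

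In this Epor window each double mutant library, which also carries Idh2 R140Q, was below each Idh2 mutant library. At the CpG 2109 bases from the start the double mutant overlapped Idh2 mutant MEP, with 5.56%, 13.6% and 0% against 19.0% and 13.3%. The window mean of the double mutant was 2.79% ± 2.5 (SD, n = 3). It differed by -9.91 points from Idh2 mutant MEP (12.7% ± 2.2, SD, n = 2, adjusted p = 0.047), just under the 10 points that a call required. The departure from the sum of the single mutant effects was -15.3 points. It was called on the logit scale (adjusted p = 0.0452), which can differ from points where levels are near 0. That call ended without any 1 of 13 of the 15 libraries, with adjusted p up to 0.159, with limma (0.0635) and with a replicate block (0.0607). Towards the end of Epor, the single CpGs at 3.95 and 4.06 kb ranged from 77.8% to 100% and from 76.9% to 100%. The 3 CpGs at 1.60 kb stayed at or below 5.70% in every library.

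Kit, whose protein was the surface marker used in both sorts, had an unmethylated start and methylated introns. The 3 CpGs between 284 and 391 bases into the gene had 0% in all double mutant and wild type MEP libraries and at most 3.23% in any library. This was also the only tested Kit window. With the double mutant and wild type MEP libraries alone, 12 CpGs of that window had 0.687%, 0% and 0% in the double mutant and 0% in both wild type MEP libraries. The 6 CpGs next to it, across the start, were 0% in all 5 libraries.

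Kit introns were measured at 4 windows of 1 or 2 CpGs, which entered only the fit of 77538 windows with at least 1 CpG. The clearest was the single CpG of intron 2, at 33.3 kb. It had 91.1%, 92.5% and 90.0% in the double mutant, 50% and 84.8% in knockout MEP, 51.7% and 17.0% in Idh2 mutant MEP, and 45.6% and 45.2% in wild type MEP. In GMP it had 78.6% and 62.5% in the knockout, 94.1% and 94.9% in the Idh2 mutant, and 90.0% and 86.5% in wild type. The double mutant was above all MEP libraries and within the range of the GMP libraries.

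The double mutant difference at Kit intron 2 was 45.8 points against wild type MEP (adjusted p = 0.00507) and 56.8 points against Idh2 mutant MEP (adjusted p = 0.00353). Against knockout MEP it was 23.8 points and did not pass the test (adjusted p = 0.201). The call against the Idh2 mutant ended without Idh2 mutant MEP replicate 2, which had 17.0%, when the difference was 39.5 points (adjusted p = 0.0716). With at least 1 CpG, 13% of windows were called against wild type MEP, 9.4% against knockout MEP and 11.6% against Idh2 mutant MEP, and 3, 2 and 4 of the 21 receptor windows were. Requiring reads only in the double mutant and wild type MEP gave 3 CpGs there, at 94.6%, 93.2% and 95.0% in the double mutant and 46.5% and 55.9% in wild type MEP, a difference of 43.1 points (adjusted p = 0.0201). The depth behind the single CpG was 17 to 74 reads per library.

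MEP lay below GMP at this Kit CpG in wild type, at 45.6% and 45.2% in MEP against 90.0% and 86.5% in GMP, and in the Idh2 mutant. In the knockout the cell types overlapped. The mean difference over the 3 genotypes was -35.4 points and did not pass the test (adjusted p = 0.0731).

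At the other Kit intron CpGs the double mutant had the highest mean of the groups sorted with MEP markers, but each of the 3 windows was called against 1 of these groups and not against the others. At 10.1 kb, in intron 1, levels were 96.0%, 96.8% and 100% in the double mutant against 58.1% and 60.4% in wild type MEP, a difference of 38.4 points (adjusted p = 0.0271). The differences there of 18.1 points from knockout MEP and 28.8 points from Idh2 mutant MEP did not pass the test (adjusted p = 0.161 and 0.0603). At 53.1 kb, in intron 7, they were 93.5%, 96.9% and 84.1% in the double mutant against 64.7% and 60.8% in knockout MEP, a difference of 28.7 points (adjusted p = 0.0149). Against Idh2 mutant MEP (86.5% and 76.2%) and wild type MEP (82.3% and 85.2%) the double mutant overlapped, and the differences of 10.1 and 7.78 points did not pass the test (adjusted p = 0.149 and 0.286). At 22.2 kb the 2 CpGs had 98.6%, 97.2% and 94.0% in the double mutant against 86.0% and 86.1% in Idh2 mutant MEP, a difference of 10.6 points (adjusted p = 0.0251). The difference of 8.88 points from knockout MEP did not pass the test (adjusted p = 0.0749), and that of 7.79 points from wild type MEP (adjusted p = 0.0375) was under the 10 points that a call required. These 3 calls were each lost without any 1 of 5, 4 and 4 of the 15 libraries, all in the groups compared, with adjusted p up to 0.109, 0.072 and 0.144. Kit introns did not all move this way. In the fit of double mutant and wild type MEP alone, 3 CpGs of another intron 1 window had 40.2%, 32.1% and 48.7% in the double mutant against 55.4% and 60% in wild type MEP, a difference of -17.4 points that did not pass the test (adjusted p = 0.147).

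**Figure D4:**
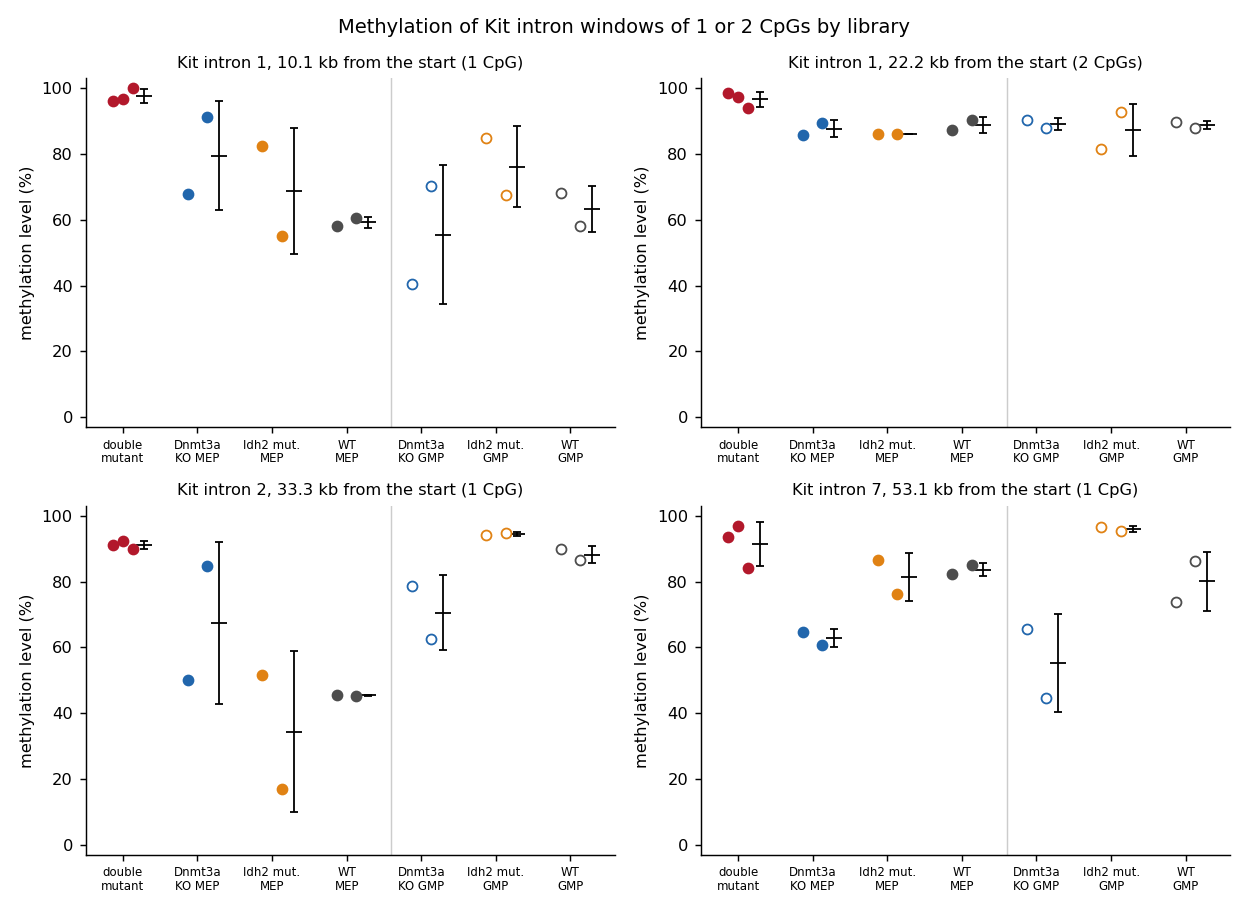
Methylation level (%) of the 4 Kit intron windows of 1 or 2 CpGs in every library (points, filled for the double mutant and MEP, open for GMP), with the mean and SD of each group beside them. Double mutant levels lie between 84.1% and 100% in all 4 windows, and wild type MEP stands at 45.6% and 45.2% in intron 2.

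Flt3, the receptor of a ligand that acts on early and dendritic progenitors, differed by cell type as well as by genotype. The 3 CpGs of intron 1 at 11.6 kb had 30.6% and 29.9% in knockout MEP against 24.0% and 28.9% in knockout GMP. They had 61.7% and 48.0% in Idh2 mutant MEP against 24.8% and 21.3% in Idh2 mutant GMP, and 30.3% and 28.5% in wild type MEP against 3.85% and 2.82% in wild type GMP. MEP lay above GMP in all 3 genotypes, and the double mutant had 33.6%, 32.8% and 43.0%.

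Flt3 intron 1 was 20.6 points higher in MEP than in GMP over the 3 genotypes (38.2% ± 14 against 17.6% ± 11, SD, n = 6 each, adjusted p = 0.00317). It was among 0.294% of windows called in that comparison, and the call held without any 1 of the 15 libraries. It ended with a replicate block by title prefix (adjusted p = 0.0501). Whether a prefix marks a shared animal is not stated and was not tested. Within wild type the difference was 26.1 points (29.4% ± 1.3 against 3.33% ± 0.73, SD, n = 2 each, adjusted p = 0.0184), where 0.0684% of windows were called. That call was lost without any 1 of the 4 wild type libraries, with adjusted p up to 0.499, and with limma (0.174). Of the 10 receptor windows, 1 was called in each of these comparisons.

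The mutants also differed from wild type at Flt3 intron 1. Over both cell types the Idh2 mutant was 22.6 points higher (39.0% ± 19 against 16.4% ± 15, SD, n = 4 each, adjusted p = 0.00161), a call that held without any 1 of the 15 libraries. The knockout was 11.99 points higher (28.4% ± 3.0, n = 4, adjusted p = 0.0169), the only receptor window called of 10, beside 1.19% of all windows. That call was lost when any 1 of 6 libraries was left out (both knockout GMP, both wild type GMP, the first of knockout MEP and the second of wild type MEP), with adjusted p from 0.0505 to 0.119, and with limma (0.0812).

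By cell type, the knockout difference in Flt3 passed the test in GMP and not in MEP. Within GMP it was 23.1 points (adjusted p = 0.0311, with 0.133% of windows and 1 of 10 receptor windows called), and within MEP 0.849 points (adjusted p = 0.963). Within MEP 0 of 10 receptor windows were called by the quasi-binomial model and by limma, 2 had an unadjusted p under 0.05, and 0.373% of all windows were called. The difference between the knockout effects, -22.3 points, did not pass the test (adjusted p = 0.572). Idh2 mutant differences were 25.4 points within MEP (adjusted p = 0.0367, with 0.889% of windows and 1 of 10 receptor windows called) and 19.7 points within GMP (adjusted p = 0.0266, with 0.479% and 1 of 10). The within-GMP knockout call was lost without any 1 of 12 libraries, the within-MEP Idh2 call without any 1 of 13, and the within-GMP Idh2 call without any 1 of 3, with adjusted p up to 0.361, 0.203 and 0.248. None of these calls within 1 cell type was made by limma. For the difference between cell types of the knockout effect and of the Idh2 mutant effect, 0% and 0% of all windows were called by either tool, with 1974 and 1184 windows at an unadjusted p under 0.05, 1 receptor window in each.

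The double mutant was lower than Idh2 mutant MEP at Flt3 intron 1, by -18.4 points (36.5% ± 5.7 against 54.9% ± 9.7, SD, n = 3 and 2, adjusted p = 0.0268). That call ended without double mutant replicate 1 or 2, and without Idh2 mutant MEP replicate 1, where the difference was -11.5 points (adjusted p = 0.0995), and with limma (0.136). Against knockout and wild type MEP the double mutant differed by 6.20 and 7.04 points, with adjusted p of 0.328 and 0.255. The 3 CpGs differed from each other. In the double mutant they had 63.3%, 46.6% and 5.16%, in Idh2 mutant MEP 78.2%, 75.2% and 14.3%, and in wild type MEP 44.6%, 35.0% and 10.6%, in order of rising genome position. The printed stretch, on the minus strand, shows them in the reverse order.

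Elsewhere Flt3 was near 0 or near 100. The 6 CpGs of intron 9, at 33.8 kb, were 0% in all double mutant libraries and at most 3.91% in any library, while the CpG at 9.87 kb ranged from 88.9% to 100%. At the start of Flt3, 2 neighbouring windows of 3 CpGs each, measured in the double mutant and wild type MEP alone, had at most 2.08% in any of the 5 libraries.

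Csf1r, the CSF-1 receptor of monocytes and macrophages, was measured at 2 CpGs in exons 3 and 4 of 22, at 4.42 kb on average. They had 96.0%, 87.2% and 83.3% in the double mutant and 77.7% and 88.5% in wild type MEP, and between 77.7% and 96.0% in all 15 libraries. No comparison was called there. In the fit of double mutant and wild type MEP alone, 3 CpGs in an untranslated exon at the end of the gene had 8.51%, 16.1% and 18.9% in the double mutant against 31.9% and 24.3% in wild type MEP. The groups did not overlap, and the difference of -13.6 points did not pass the test (adjusted p = 0.182).

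Counts of called promoters among other genes of the cytokine pathway lay near the shares over all promoters. Of 65 listed ligands, receptors, kinases and negative regulators, 33 had a tested promoter, and 21 of these were below 10% in all groups. Higher in the double mutant were 4 against wild type MEP, 5 against knockout MEP and 3 against Idh2 mutant MEP, with 0 lower. Over all 12039 promoters 1387, 1656 and 1365 were higher. The shares of all promoters called in either direction were 12.1%, 14.6% and 13%, and limma called 2, 4 and 3 of the list. For the knockout and the Idh2 mutant against wild type and for MEP against GMP over the 3 genotypes, 0 of the 33 were called by the quasi-binomial model or by limma, where the model called 0.914%, 1.81% and 0.0332% of all promoters. At an unadjusted p under 0.05 there were 4, 7 and 2 of the 33. The median difference against wild type MEP was 0.19 points over the list and 0.265 over all promoters.

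Among receptors of that list, Lepr, the leptin receptor gene, had 44.4% ± 2.7 in the double mutant and 2.84% ± 0.92 in wild type MEP (SD, n = 3 and 2, adjusted p = 7.89e-06). Osmr, the oncostatin M receptor gene, had 13.7% ± 2.0 in the double mutant and 1.56% ± 0.59 in wild type MEP (adjusted p = 7.3e-06). Both were also higher than in knockout and Idh2 mutant MEP. Il6ra, the interleukin 6 receptor gene, was called against knockout MEP (58.2% ± 7.7 against 26.7% ± 19, adjusted p = 0.0101) and not against the other MEP groups. Shc1, an adaptor of receptor signalling, had 66.8% ± 2.1 in the double mutant against 38.6% ± 0.92 in wild type MEP (adjusted p = 0.00411), and was also higher than in the other MEP groups. Thpo, which encodes thrombopoietin, had 19.1% ± 0.43 against 9.11% ± 1.2, a difference of 10.02 points (adjusted p = 0.0282), and 7.16% ± 0.055 in knockout MEP (adjusted p = 0.00633). Limma called 0 of the tested ligands in either comparison, so neither Thpo call was made by it. It also called 0 of the kinases, adaptors and STATs against wild type MEP, so the call of Shc1 there was lost. Of the 9 tested negative regulators, which include the Socs genes, 8 were below 10% in all groups, and 0 were called against any MEP group in the double mutant by either tool, with 1 to 2 at an unadjusted p under 0.05.

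The promoters with 7 group means closest to those of Csf2ra were Cd40, Gm5593 and Dlec1, with root mean square differences of 5.74, 7.33 and 7.99 points. Those closest to Il3ra were Dom3z, Prkar1a and Ttll11, at 2.44, 2.47 and 2.51 points. These rest on 7 group means from the same libraries. Promoters of lineage genes did not serve to check the sorts. Of 9 GMP genes and 11 MEP genes listed, 4 each had a tested promoter, and most were below 10% in both cell types, as with Cebpa and Zfpm1. Of 6 lymphoid genes 1 was tested, Pax5, at 18.2% in the double mutant and 8.65% in wild type MEP, and its part in the results was not tested.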

How the data were processed

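The members and gene lists were chosen with earlier results of these data known. Per the submitters' processing notes, the authors used BSMAP 2.74 and mm9. The tests rest on deposited counts of methylated reads and of all reads at each cytosine. The deposited fraction equalled their ratio within 0.001 in every row. Counts stop at 65535. Sources used here say nothing of trimming, duplicate removal or bisulfite conversion, and duplicate reads cannot be told from separate molecules.

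Strands were summed, and autosomal CpGs that reached 10 reads in each of the 15 libraries were grouped into 1 kb windows and promoters of at least 3 CpGs. Gene models came from GENCODE vM1. A quasi-binomial logistic model gave each of the 7 groups a mean (8 residual degrees of freedom), with dispersions shrunk to a shared prior (3.13 prior degrees of freedom for windows, 2.91 for promoters) and held at 1 or more. Contrasts were tested by F test on the logit scale, adjusted by Benjamini-Hochberg over all windows or promoters, while differences in points are of group mean percentages. Groups had equal weight, and errors are SD over libraries. The code was tested on simulated data. Alternatives were 20 reads, windows of 500 bp, 1 CpG, compared groups alone, limma 3.58.1 in R 4.3.3 on log ratios of methylated to unmethylated reads, replicate blocks, and leaving out each library. The alternatives of leaving out libraries for windows of 1 or 2 CpGs and for single Csf2ra CpGs were chosen after seeing the data. Named were all members, called windows, each member's widest-ranging window, called pathway promoters and, for member promoters spanning at least 10 points, the 3 promoters most alike. The tools were matplotlib 3.10.9, pandas 2.3.3, scipy 1.17.1, numpy 2.4.6 and Python 3.11.15.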

Additional observations from a re-analysis of the deposited data

Results flagged for a closer look

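In 2 of the 10 receptor windows, beside 5.98% of all windows, the effect of Idh2 R140Q differed between the genotypes labelled Dnmt3a-/- and Dnmt3af/f. The difference itself was tested, on the logit scale, while the points below are of mean percentages. The call in Csf2ra held without any 1 library, and that in Epor did not. In Csf2ra exons 7 and 8 the difference of effects was 77.9 points (adjusted p = 0.00392). Idh2 R140Q went with 80.4 points more methylation among the Dnmt3a-/- genotypes (double mutant minus knockout MEP) and 2.54 points among the Dnmt3af/f genotypes (Idh2 mutant minus wild type MEP). The 3 double mutant libraries were above the 6 other MEP libraries.

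In Epor exon 4 the difference of effects was -15.3 points (adjusted p = 0.0452 on the logit scale), a call lost without any 1 of 13 of the 15 libraries, with limma (0.0635) and with a replicate block (0.0607). The effect was -3.47 points among the Dnmt3a-/- genotypes and 11.9 points among the Dnmt3af/f genotypes. The 3 double mutant libraries were below both Idh2 mutant MEP libraries. Depth in a window of Dnmt3a was as low in Idh2 mutant MEP (0 and 0.163 RPM) as in the Dnmt3a-/- genotypes (0 to 1.85 RPM), against 6.54 to 8.21 RPM in wild type, so these data do not show that Dnmt3a was intact in the Idh2 mutant. Both departures rest on 3 double mutant libraries of malignant cells and on a wild type group that also differed in sex chromosome reads, and the part of either in these results was not tested. Among the Dnmt3af/f genotypes the Idh2 mutant also lacked Mx1-cre, which wild type carried. Idh2 R140Q and the lack of Mx1-cre cannot be told apart there, while both Dnmt3a-/- genotypes carried Mx1-cre.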

How the results depend on the processing

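Of 127 counts of called receptor windows or promoters recomputed under alternatives other than leaving out a library, 92 stayed within 1.5 times and 35 did not. The 20 named differences kept their sign in all 348 recomputations and were still called in 259. The Csf2ra exon 7 and 8 differences stayed called at 20 reads, with limma, with the replicate block and without any 1 library, with adjusted p at most 0.0251 when 1 library was left out.

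For the knockout against wild type, 0 windows were called with libraries of a title prefix summed, with the compared groups alone and with limma. For the Idh2 mutant against wild type, 1 window was called at 20 reads. Against wild type MEP, knockout MEP and Idh2 mutant MEP, 3, 2 and 4 windows were called with 1 CpG. The compared groups alone gave 2 windows against wild type MEP, 1 against Idh2 mutant MEP and, for promoters, 1 against knockout MEP, and limma gave 1 against Idh2 mutant MEP. For the sum of single mutants, 1 window was called at 20 reads, with windows of 500 bp, with 1 CpG, with the compared groups alone and with limma. Within wild type for MEP against GMP, and within 1 cell type for the knockout in GMP and the Idh2 mutant in MEP and in GMP, 0 windows were called with the compared groups alone and with limma. For the Csf2ra promoter in the Idh2 mutant, 0 were called with prefixes summed, with the compared groups alone and with limma. The causes were not tested.

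Leaving out 1 library gave 0 to 1 windows for the knockout, 2 to 3 for the Idh2 mutant, 1 to 1 for the double mutant against wild type or knockout MEP, 1 to 2 against Idh2 mutant MEP and 1 to 2 for the sum. It gave 1 to 1 for MEP against GMP, 0 to 1 within wild type, 0 to 1 within each cell type for the calls above, and 0 to 1 promoters for the Idh2 mutant. Where a group then had 1 library, it was assumed to vary like the others.

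Libraries sharing a title prefix deviated together with a correlation of 0.51 in the Idh2 mutant, 0.361 in wild type and -0.0397 in the knockout. For those with the same replicate number it was -0.035 to 0.0493. The main fit took neither as pairing, and whether libraries of a prefix came from the same animal was not tested. With prefixes summed, the calls of the Csf2ra promoter in the Idh2 mutant (adjusted p = 0.0664) and Flt3 intron 1 in the knockout (0.112) ended. The Idh2 mutant calls in Flt3 intron 1 (0.0112) and Epor (0.0272) held. With a replicate block 1 window was called for the sum, 0 within wild type and 0 within GMP or MEP for the calls above, and 0 promoters for the Idh2 mutant. With a replicate block by title prefix, Flt3 intron 1 was not called between MEP and GMP over the 3 genotypes (0 windows, adjusted p = 0.0501) or within wild type (0 windows, 0.183). At 20 reads no receptor promoter was tested.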
